A study of Homo sapiens with 20 samples.

Results

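The subject is the change in the estradiol response of SUM44 cells between the later and the earlier sampling time, taken for each gene as the E2 effect at 24 h minus the E2 effect at 3 h. SUM44 is a cell line of invasive lobular breast carcinoma that carries the estrogen receptor. The comparison used 16 of the 20 arrays, chosen by the treatment and time in the sample titles, and the remaining 4 arrays are untreated baseline cells. The 4 groups of 4 arrays were cells given 1 nM 17β-estradiol (E2) for 24 h, cells given the ethanol vehicle (0.01%) for 24 h, cells given 1 nM E2 for 3 h, and cells given the vehicle for 3 h.

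All groups, baseline included, had first been kept without hormone for 3 days, the serum having been stripped with charcoal and used at 2% by the series text and at 10% by the sample text, which were not reconciled. The treatment field of the E2 24 h samples reads as baseline, and their titles and descriptions name E2, which was followed. Each group is described as a biological quadruplicate of this 1 cell line, so the spread is between cultures of one line. Expression was read on Affymetrix U133A 2.0 arrays and deposited as log2 intensities, and 11963 genes were tested, each through its brightest probe set.

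Estradiol binds the estrogen receptor, a transcription factor that acts directly at its own binding sites within hours, and the first products it induces or represses go on to change further genes. In breast cancer cells the later response includes entry into the cell cycle. An effect can change between times because the E2-treated cells move, because the vehicle-treated cells move, or both.

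Every effect below is E2 minus vehicle on the log2 scale, and every difference is the effect at 24 h minus the effect at 3 h. A value after ± is a standard error. The difference equals the change of the E2 arrays minus the change of the vehicle arrays, each taken as 24 h minus 3 h. Either set of cells may therefore have moved. Both changes, or the levels of the 4 groups, are given for the genes described most fully. For genes given by their effects alone, which cells moved is not stated. A gene passed when limma's Benjamini-Hochberg adjusted p over all genes was under 0.05. A level under 6.11, the 25th percentile of the gene means, is called dim, and a fold that rests on a dim level is compressed by background.

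The luminal identity of the cells was clear on the arrays. KRT8, KRT18, KRT19, EPCAM, ESR1, GATA3 and FOXA1 averaged between 11.28 and 13.91 over the 20 arrays. The basal keratins KRT5 and KRT14, the leukocyte gene PTPRC and the endothelial gene CDH5 were dim, whereas COL1A1 stood at 8.49, PDGFRB at 6.58, VWF at 6.47 and CD3E at 6.25. The 12 basal markers measured, 7 of them dim, had a summed log2 level of 11.47 to 11.70 over the 4 groups, so not all basal markers were dim. The summed log2 level of the 18 stromal markers, 12 of them dim, was at most 11.07 in E2 24 h arrays and at least 11.50 in every array of the other 3 groups; SPARC, a matrix protein gene, fell by 1.12 in E2 arrays between the times, with a vehicle change of -0.02. The 21 immune and endothelial markers, 15 of them dim, summed to 10.13 to 10.35 over these groups. Across genes, replicate arrays correlated at 0.998 to 0.999. The 3′ minus 5′ signal of a control transcript is a measure of RNA degradation. That of ACTB averaged 0.384 in E2 24 h arrays, 0.397 in vehicle 24 h arrays, 0.385 in E2 3 h arrays and 0.315 in vehicle 3 h arrays. The vehicle 3 h arrays lay lowest on it (0.291 to 0.339), the side of less degradation, and they enter every difference below. That of GAPDH averaged -0.148, -0.117, -0.138 and -0.116 in the same order, and the vehicle groups overlapped on it. The part of RNA quality in the results was not tested.

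The responses at the times differed for a large share of genes, and for most of these the E2 arrays moved more than the vehicle arrays. Limma passed 4100 genes (34.3%) in the difference, 1973 (16.5%) positive and 2127 (17.8%) negative. At least 1.5-fold in size were 767 of them (6.41%). The E2 effect itself passed for 5469 genes (45.7%) at 24 h and for 3720 (31.1%) at 3 h. Of the 4100 genes, 1765 had an effect that passed at 24 h and not at 3 h, and 714 the other way round. A further 474 had effects of one direction that were larger at 24 h and 522 effects of one direction that were smaller at 24 h. Opposite effects at the times were found for 512 genes, and for 113 neither effect passed on its own.

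The E2 arrays changed between the times for 5236 genes (43.8%) and the vehicle arrays for 3458 (28.9%). Among the 4100 genes, the E2 change alone passed for 1856, the vehicle change alone for 650, and both for 1438, of which 801 went in opposite directions. The E2 change was the larger for 2954 genes (72.0%), and the vehicle change was the larger and passed for 1047 (25.5%). The median size of the change was 0.26 in E2 arrays and 0.12 in vehicle arrays. The E2 change passed and reached 1.5-fold for 752 genes (6.29%), against 200 (1.67%) for the vehicle change.

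**Figure D1:**
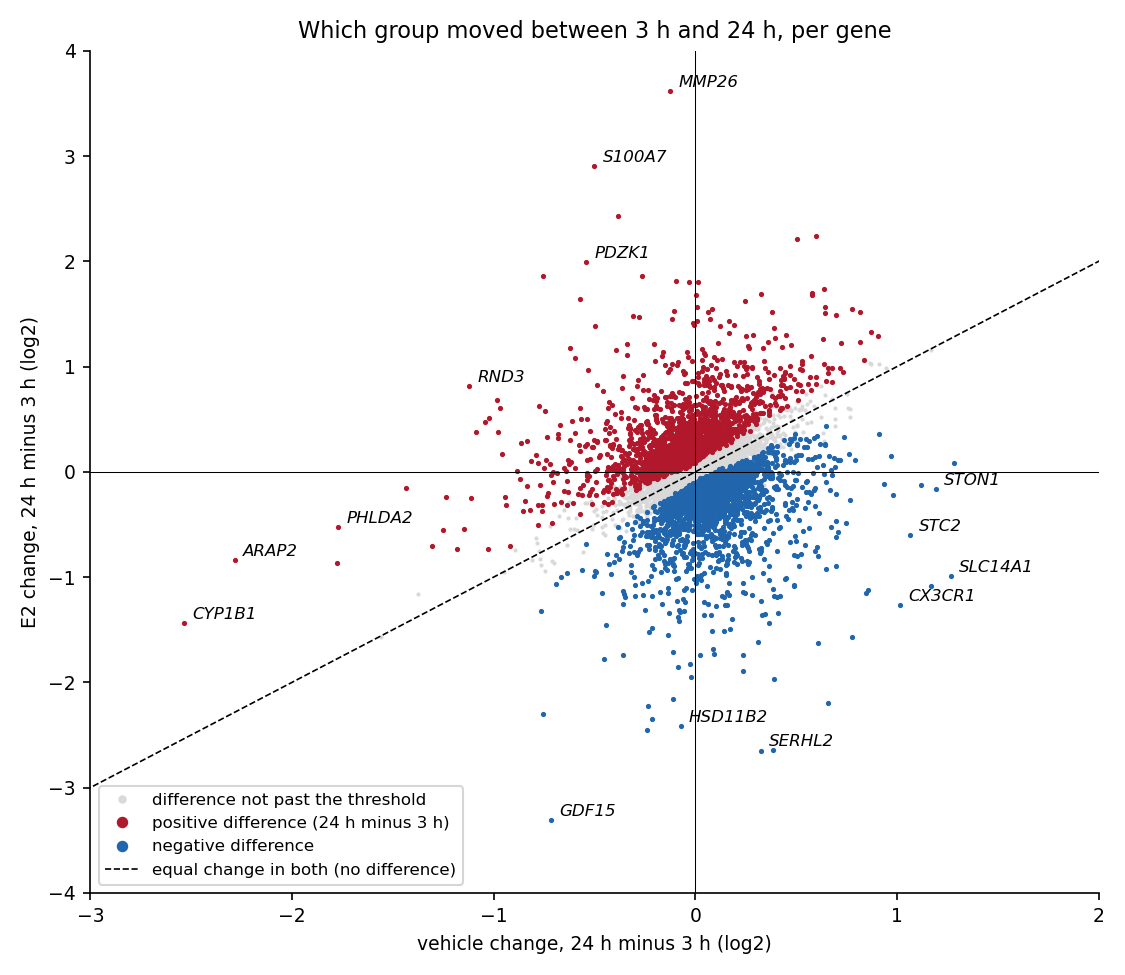
Change of each of 11963 genes between 3 h and 24 h in E2 arrays (y axis, log2) and in vehicle arrays (x axis, log2). Red and blue points passed the threshold with a positive (1973) or negative (2127) difference, grey points did not, and the dashed line marks equal change; MMP26 and S100A7 lie far up the E2 axis with small vehicle changes, while ARAP2, PHLDA2 and CYP1B1 lie far left along the vehicle axis.

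Genes induced late gave the largest positive differences. The matrix metalloproteinase gene MMP26 read 9.47, 9.47, 9.35 and 9.18 in E2 24 h arrays, against 5.22, 5.09, 5.26 and 5.28 in vehicle 24 h arrays. The 3 h arrays read 5.53, 5.90, 5.79 and 5.75 in E2 arrays, against 5.47, 5.38, 4.97 and 5.54 in vehicle arrays. Only the E2 24 h arrays rose above the dim level, and E2 and vehicle arrays overlapped narrowly at 3 h. The difference was 3.74 ± 0.15 (adjusted p = 2.3e-13), made of an E2 change of 3.62 and a vehicle change of -0.12 that did not pass.

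The calcium-binding protein gene S100A7 (psoriasin) read 11.69, 11.82, 11.69 and 11.69 in E2 24 h arrays, against 7.42, 7.54, 7.53 and 7.78 in vehicle 24 h arrays. Its 3 h levels were 8.68, 8.80, 8.83 and 8.97 in E2 arrays, against 8.01, 8.21, 7.92 and 8.13 in vehicle arrays. E2 and vehicle arrays were apart at both times, and vehicle arrays were lower at 24 h than at 3 h. The E2 change was 2.90 and the vehicle change -0.50, and both passed.

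PDZK1, a scaffold protein of membrane transporters, read 11.59, 11.53, 11.57 and 11.56 in E2 24 h arrays, against 7.34, 7.36, 7.33 and 7.37 in vehicle 24 h arrays. At 3 h the values were 9.57, 9.49, 9.62 and 9.62 in E2 arrays, against 7.85, 8.10, 7.83 and 7.78 in vehicle arrays. The gene was higher by 4.21 at 24 h and already higher by 1.68 at 3 h. Its E2 arrays rose by 1.99 and its vehicle arrays fell by 0.54.

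ATRNL1 was 2.49 higher under E2 at 24 h, while its effect of -0.13 at 3 h did not pass. Its levels at 24 h were 8.81, 8.71, 8.67 and 8.59 in E2 arrays, against 6.21, 6.10, 6.11 and 6.41 in vehicle arrays. At 3 h they were 6.95, 6.91, 6.83 and 6.66 in E2 arrays, against 6.96, 6.96, 6.97 and 6.95 in vehicle arrays. The E2 arrays rose by 1.86 and the vehicle arrays fell by 0.75, so both sets of cells contributed.

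The potassium channel gene KCNK2 was dim in every group except E2 24 h, where it averaged 6.76. Its difference was 2.12 ± 0.11 and its E2 change 1.86. OLFML3, a secreted protein, differed by 1.91 ± 0.11 with an E2 change of 1.81, while its vehicle change of -0.10 did not pass. Its vehicle means were dim at both times. Both genes were led by the E2 arrays.

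Positive differences also came from genes that E2 lowered early and less, or not at all, later. The homeobox gene DLX2 read 7.26, 7.32, 7.22 and 7.15 in E2 24 h arrays, against 8.45, 8.34, 8.40 and 8.41 in vehicle 24 h arrays. It read 5.78, 5.63, 5.36 and 5.60 in E2 3 h arrays, against 9.13, 9.04, 8.87 and 8.87 in vehicle 3 h arrays. E2 arrays lay below vehicle arrays at both times, with an effect of -1.16 at 24 h and -3.38 at 3 h, where the E2 level was dim. The rise of the E2 arrays (1.65) made most of its difference of 2.22 ± 0.10, with a vehicle change of -0.57; 1 of its 2 probe sets passed.

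GATA3, a transcription factor of luminal identity, gave the same picture without any vehicle movement that passed. Its levels were 13.13, 13.14, 13.14 and 13.08 in E2 24 h arrays, against 13.64, 13.65, 13.61 and 13.62 in vehicle 24 h arrays. At 3 h they were 11.43, 11.54, 11.60 and 11.66 in E2 arrays, against 13.66, 13.59, 13.64 and 13.60 in vehicle arrays. The difference was 1.56 ± 0.05 with 3 of 3 probe sets past the threshold, the E2 change 1.57 and the vehicle change 0.01. At 24 h the E2 effect was still -0.51.

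RAPGEF5, an exchange factor for Rap GTPases, went further and changed sign. E2 arrays read 10.40, 10.37, 10.29 and 10.38 at 24 h, against 10.06, 9.98, 9.99 and 9.95 in vehicle arrays. At 3 h E2 arrays read 8.97, 8.84, 9.06 and 9.01, against 10.38, 10.54, 10.47 and 10.56 in vehicle arrays. Its effect was 0.36 at 24 h and -1.52 at 3 h, both past the threshold. The E2 change was 1.39 and the vehicle change -0.50.

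The largest negative differences had 2 forms, repression that came late and induction that had faded. SERHL2, a serine hydrolase-like gene, read 9.06, 9.03, 8.93 and 8.93 in E2 24 h arrays, against 12.03, 12.08, 12.10 and 12.14 in vehicle 24 h arrays. At 3 h the levels were 11.65, 11.62, 11.71 and 11.56 in E2 arrays, against 11.76, 11.65, 11.82 and 11.82 in vehicle arrays. The E2 24 h arrays were far below all others, and the 3 h groups overlapped. The E2 change was -2.65 and the vehicle change 0.32; the probe set is of a kind that may cross-hybridise, so signal from the similar gene SERHL cannot be told apart.

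HDC, which makes histamine, read 7.17, 7.08, 7.17 and 7.09 in E2 24 h arrays, against 9.68, 9.63, 9.70 and 9.72 in vehicle 24 h arrays. Its 3 h levels were 8.70, 8.62, 8.75 and 8.71 in E2 arrays, against 8.83, 8.83, 9.02 and 8.95 in vehicle arrays. Here the E2 arrays fell by 1.57 while the vehicle arrays rose by 0.78, and both changes passed. Late repression with a rising vehicle was also measured for the phospholipid flippase gene ATP8A2 (E2 change -2.20, vehicle change 0.66), for CX3CR1, the fractalkine receptor (-1.26 and 1.02), and for the calcium channel subunit gene CACNA2D3 (-2.64 and 0.38). For CX3CR1 and CACNA2D3 the E2 24 h means, 5.61 and 4.98, were dim, which compresses these changes.

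Faded induction was clearest for GADD45B, a stress-induced growth arrest gene. It read between 7.97 and 8.11 in E2 24 h arrays, against 7.76, 7.89, 7.85 and 7.79 in vehicle 24 h arrays. In the 3 h arrays it stood at 9.86, 10.06, 10.06 and 9.93 in E2 arrays, against 7.46, 7.35, 7.51 and 7.40 in vehicle arrays. Its effect was 0.19 at 24 h and 2.55 at 3 h, and all 4 probe sets passed in the same direction. The E2 change was -1.96 and the vehicle change 0.39.

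GDF15, a secreted member of the TGF-β superfamily, averaged 6.12 in E2 24 h arrays and 6.27 in vehicle 24 h arrays, against 9.43 in E2 3 h arrays and 6.99 in vehicle 3 h arrays. Both arms were lower at 24 h, with an E2 change of -3.31 and a vehicle change of -0.72; 1 of 2 probe sets passed and the one used may cross-hybridise. HSD11B2, which inactivates cortisol, stayed higher under E2 at 24 h but by less, with an effect of 1.18 at 24 h and 3.52 at 3 h. Its vehicle arrays were dim at both times and changed by -0.07, which did not pass. The adaptor exchange factor RASGRP1 likewise had an effect of 2.19 at 24 h and 4.18 at 3 h, with an E2 change of -2.22 and a vehicle change of -0.24.

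**Figure D2:**
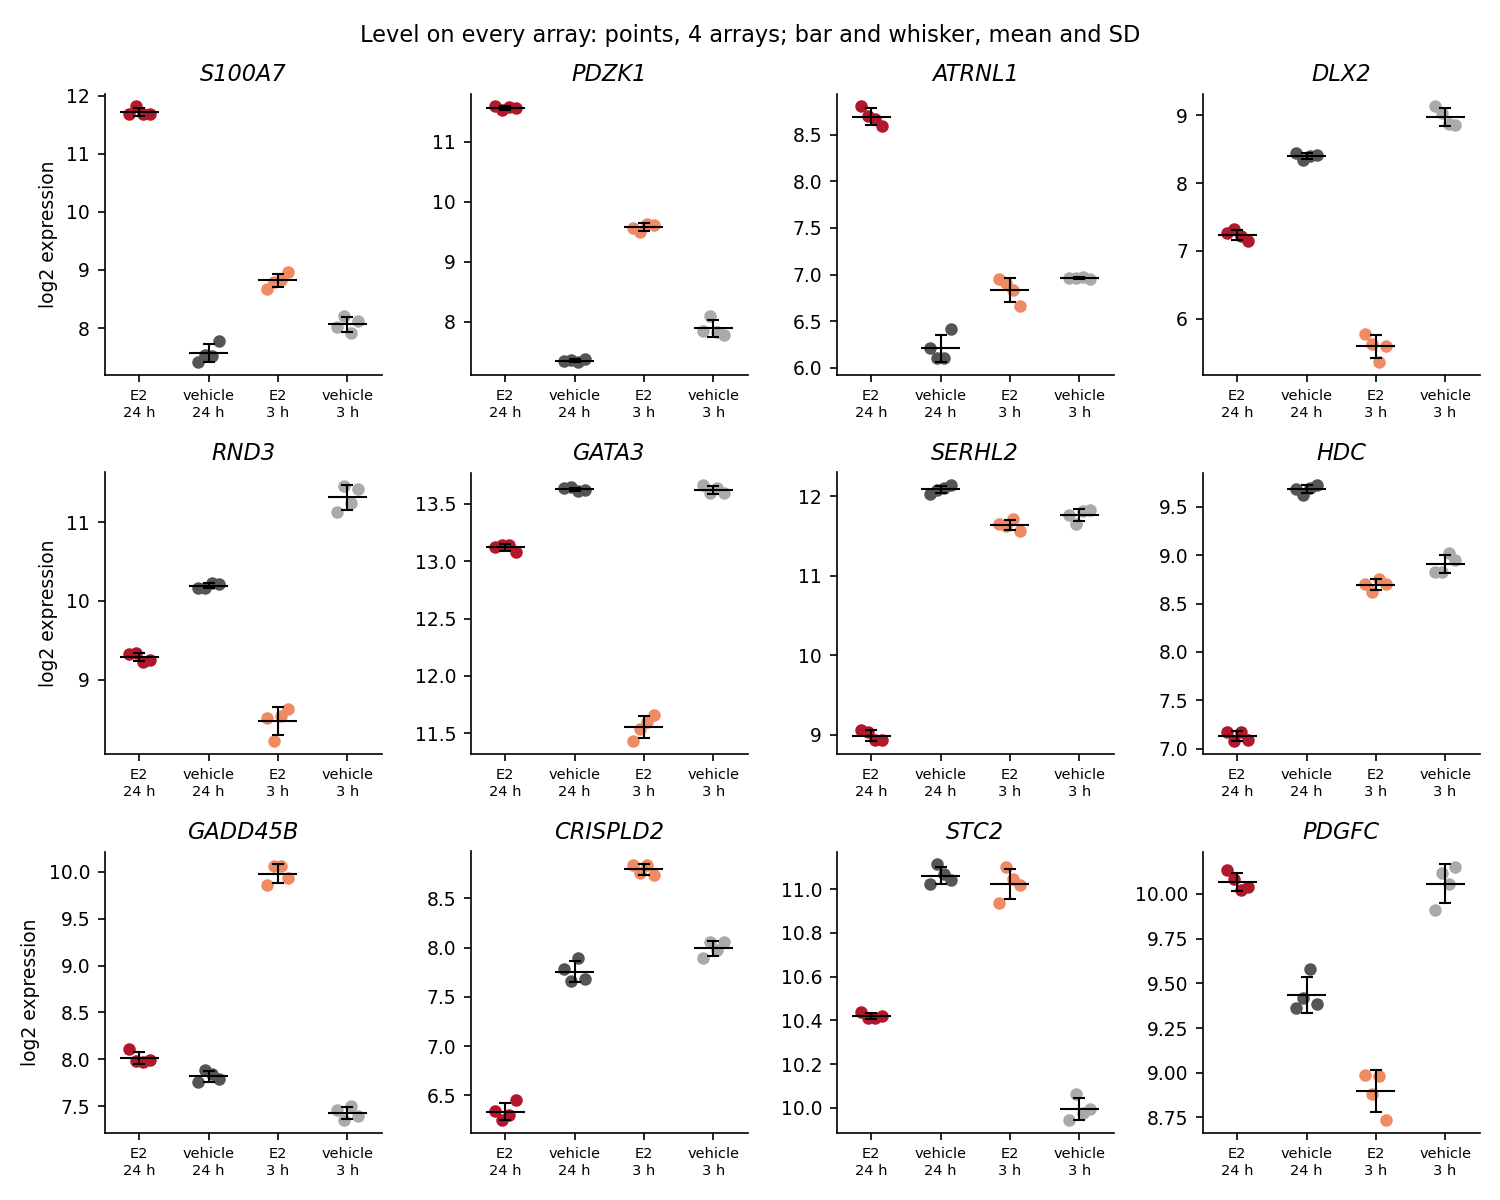
Log2 expression (y axis) of 12 genes on every array of the E2 24 h, vehicle 24 h, E2 3 h and vehicle 3 h groups (x axis); points are arrays, bars and whiskers the mean and SD of 4. S100A7, PDZK1 and ATRNL1 are highest in E2 24 h arrays, SERHL2 and HDC lowest there, GATA3 is lowest in E2 3 h arrays and GADD45B highest there, and each panel has its own y range.

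Changes of direction were frequent and mostly small. Of the 512 genes, 263 were lower under E2 at 24 h and higher at 3 h, while the opposite held for 249. E2 and vehicle arrays did not overlap at either time for 198 genes of each kind. Of all genes, 41.4% had no overlap at 24 h and 30.6% at 3 h, each counted at a single time. The reversals were chosen by a test on the same arrays, so this separation is no separate support for them. The smaller of the effects had a median size of 0.17 in the first kind and 0.16 in the second. Only 24 and 30 genes reached 1.25-fold at both times, and 3 and 4 reached 1.5-fold.

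CRISPLD2, a secreted protein, read 6.34, 6.26, 6.30 and 6.46 in E2 24 h arrays, against 7.78, 7.67, 7.89 and 7.68 in vehicle 24 h arrays. The 3 h levels were 8.84, 8.76, 8.83 and 8.74 in E2 arrays, against 7.89, 8.05, 7.97 and 8.05 in vehicle arrays. E2 arrays were the lowest of all at 24 h and the highest of all at 3 h. The E2 change was -2.45 and the vehicle change -0.24. MAN1C1, a Golgi mannosidase, reversed likewise, with an effect of -1.68 ± 0.06 at 24 h and 0.56 ± 0.06 at 3 h. Its E2 change was -1.63 and its vehicle change 0.61.

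The Notch target and repressor HES1 read 8.69, 8.78, 8.62 and 8.71 in E2 24 h arrays, against 9.19, 9.31, 9.22 and 9.27 in vehicle 24 h arrays. Its levels at 3 h were 10.20, 10.32, 10.18 and 10.10 in E2 arrays, against 9.11, 9.12, 9.02 and 9.07 in vehicle arrays. On the means, E2 arrays stood at 8.70 at 24 h and 10.20 at 3 h, and vehicle arrays rose by 0.17; 2 of 3 probe sets passed. TBX3, a T-box factor of mammary development, had an effect of -0.61 at 24 h and 0.52 at 3 h. LDLRAD4, an inhibitor of TGF-β signalling, stood at -0.56 and 1.01, the epidermal differentiation factor ZNF750 at -0.60 and 0.80, and the orphan nuclear receptor NR2C1 at -0.47 and 0.54, in the same order of times. In these genes the E2 arrays fell and the vehicle arrays rose. The E2 and vehicle changes were -0.87 and 0.26 for TBX3 and -0.93 and 0.65 for LDLRAD4. They were -1.03 and 0.36 for ZNF750 and -0.65 and 0.37 for NR2C1.

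STC2, a secreted glycoprotein counted among estrogen-induced genes of ductal lines, owed its reversal more to the vehicle arrays. It read 10.44, 10.41, 10.41 and 10.42 in E2 24 h arrays, against 11.02, 11.11, 11.07 and 11.04 in vehicle 24 h arrays. At 3 h the levels were 10.94, 11.10, 11.05 and 11.02 in E2 arrays, against 9.95, 10.07, 9.97 and 10.00 in vehicle arrays. The E2 arrays fell by 0.60 while the vehicle arrays rose by 1.07. The vehicle level at 24 h overlapped the E2 level at 3 h.

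In the other direction, PDGFC, a platelet-derived growth factor, read 10.13, 10.08, 10.02 and 10.04 in E2 24 h arrays, against 9.36, 9.42, 9.58 and 9.38 in vehicle 24 h arrays. The 3 h levels were 8.99, 8.88, 8.98 and 8.74 in E2 arrays, against 9.91, 10.12, 10.06 and 10.15 in vehicle arrays. Its effect was 0.63 ± 0.06 at 24 h and -1.16 ± 0.06 at 3 h. The E2 arrays rose by 1.17 and the vehicle arrays fell by 0.62.

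E2F8, an atypical E2F that represses cell cycle genes, read 9.84, 9.79, 9.97 and 9.82 in E2 24 h arrays, against 9.31, 9.29, 9.31 and 9.20 in vehicle 24 h arrays. It read 8.22, 8.13, 8.29 and 8.04 in E2 3 h arrays, against 8.99, 8.93, 9.02 and 8.86 in vehicle 3 h arrays. Both arms rose between the times, the E2 arrays by 1.69 and the vehicle arrays by 0.32. The glypican gene GPC4 (0.59 at 24 h, -0.70 at 3 h) and the potassium channel subunit gene KCNE4 (0.68 and -0.48) also crossed through their E2 arrays, which rose by 1.13 and 1.01.

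Of the 249 reversals of this kind, the E2 change was the larger in 168 and the vehicle change in 81, and 4 of the 8 clearest were led by the vehicle arrays. ARAP2, an Arf GTPase-activating protein, read 5.52, 5.54, 5.31 and 5.46 in E2 24 h arrays, against 5.16, 4.79, 4.82 and 4.68 in vehicle 24 h arrays. At 3 h its levels were 6.26, 5.93, 6.46 and 6.54 in E2 arrays, against 6.77, 7.39, 7.12 and 7.31 in vehicle arrays. Both arms fell, with an E2 change of -0.84 and a vehicle change of -2.28, and its levels at 24 h were dim. PHLDA2 fell in both arms too, with an E2 change of -0.53 and a vehicle change of -1.77, and 1 of its 2 probe sets passed. The bZIP factor gene CREB5 and the small GTPase gene GEM had E2 changes of 0.37 and 0.68, against vehicle changes of -1.09 and -0.98. CREB5 was dim in every group but vehicle 3 h, where it averaged 6.24.

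**Figure D3:**
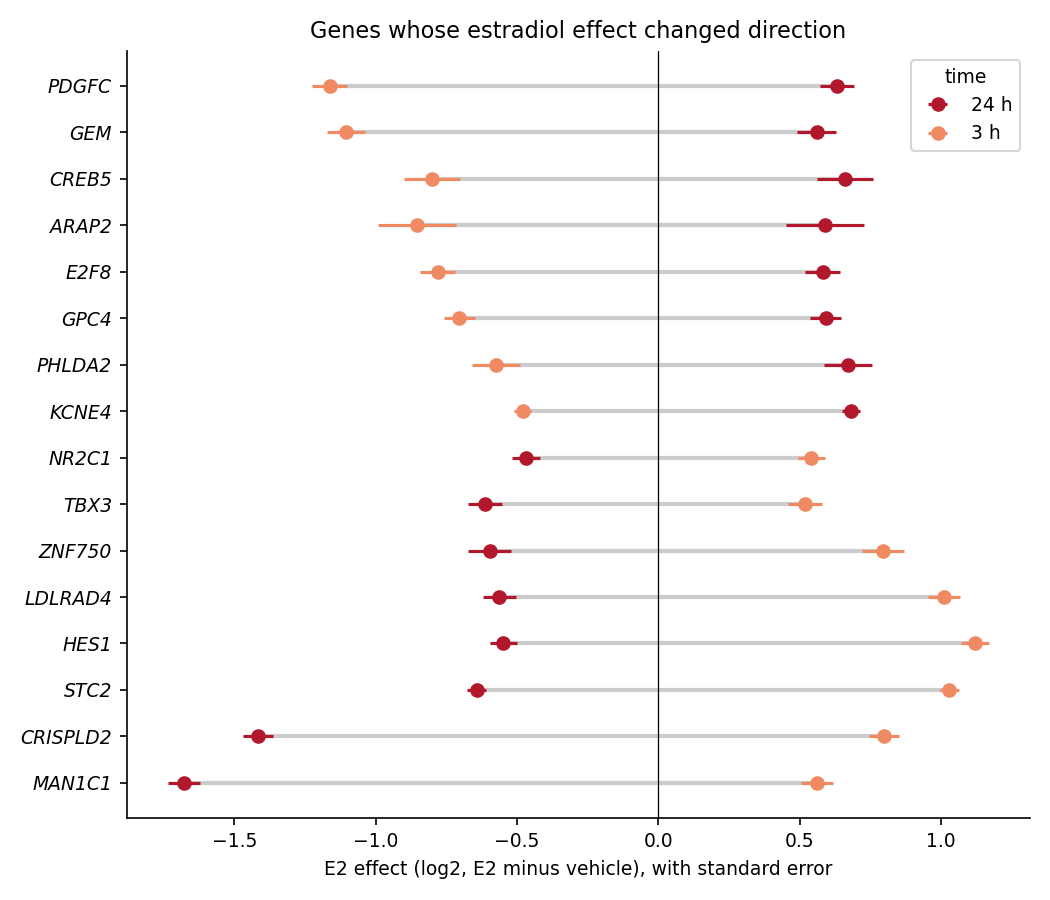
E2 effect (x axis, log2, E2 minus vehicle, with standard error) at 24 h (dark) and 3 h (light) for the 16 genes (y axis) with the largest smaller effect among those that changed direction. MAN1C1 and CRISPLD2 reach furthest below 0 at 24 h and PDGFC and GEM furthest below 0 at 3 h.

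**Figure D4:**
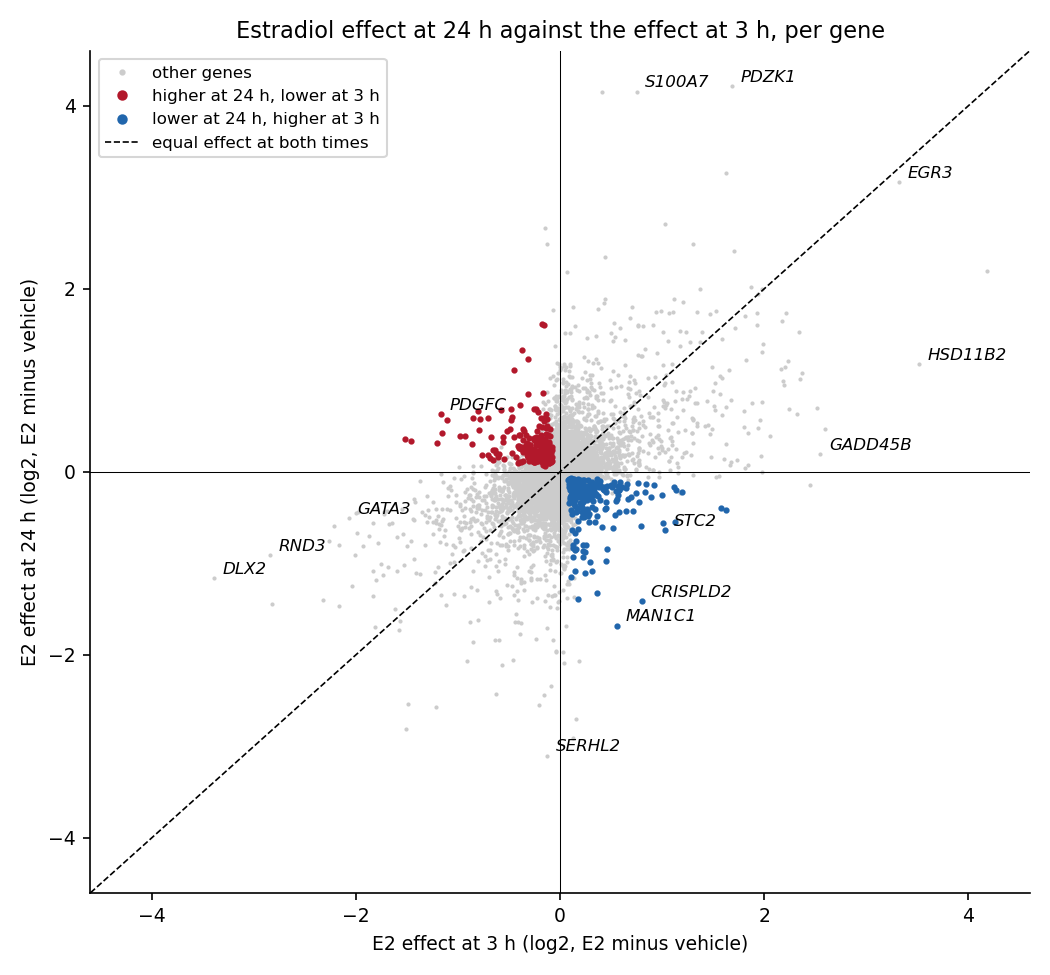
E2 effect at 24 h (y axis, log2) against the effect at 3 h (x axis, log2) for 11963 genes, with the dashed line at equal effects. Genes that changed direction (512, coloured) lie mostly close to the axes; EGR3 lies near the line, PDZK1 and S100A7 above it, and HSD11B2 and GADD45B below it.

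For genes in which the vehicle change was the larger, the baseline arrays show where the vehicle arrays stood. RND3 had the largest positive difference of this kind. It read 9.33, 9.34, 9.23 and 9.25 in E2 24 h arrays, against 10.16, 10.17, 10.23 and 10.22 in vehicle 24 h arrays. At 3 h it read 8.51, 8.22, 8.54 and 8.62 in E2 arrays, against 11.13, 11.46, 11.24 and 11.41 in vehicle arrays. The E2 arrays rose by 0.81 and the vehicle arrays fell by 1.12, for a difference of 1.93 ± 0.10. Vehicle means were 10.19 at 24 h and 11.31 at 3 h, against 10.23 in baseline cells, so the 24 h mean was the closer to baseline.

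In the next 4 positive vehicle-led genes by size, and in ARAP2 and PHLDA2, the vehicle mean was above baseline at 3 h and nearer to it at 24 h. CDC42EP3 averaged 8.22 in vehicle 24 h arrays and 9.19 in vehicle 3 h arrays, against 8.21 at baseline. For TENT5A the means were 9.62, 10.66 and 9.77 in the same order, for FLRT3, a membrane protein, 5.67, 6.69 and 5.44, and for GEM 7.12, 8.10 and 7.30. FLRT3 was dim in every group but vehicle 3 h. ARAP2 and PHLDA2 had the same order, at 4.86, 7.15 and 4.92, and at 8.84, 10.61 and 9.12. This did not hold for every vehicle-led gene, since GREB1 vehicle arrays were below the baseline mean of 10.48 at both times, at 9.48 at 24 h and 10.09 at 3 h. The 3′ minus 5′ signal of ACTB was lowest in vehicle 3 h arrays (0.315, against 0.466 at baseline). That of GAPDH was -0.116 in vehicle 3 h arrays and -0.124 at baseline. The part of RNA quality in these levels was not tested.

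Among negative genes led by the vehicle, STON1, an endocytic adaptor, was 2.57 lower under E2 at 24 h and 1.22 lower at 3 h. Its E2 change of -0.16 did not pass and its vehicle arrays rose by 1.19. The urea transporter gene SLC14A1 had a difference of -2.25 ± 0.19 with an E2 change of -0.99 and a vehicle change of 1.27, and all its group means were dim. ALB, the albumin gene, differed by -2.25 ± 0.11, with 1 of 3 probe sets past the threshold and a dim E2 24 h mean of 5.41. AFDN-DT, a non-coding transcript divergent from AFDN, differed by -1.31 ± 0.13. In these genes the vehicle mean was above baseline at 24 h and below it at 3 h. STON1 averaged 9.78 in vehicle 24 h arrays and 8.59 in vehicle 3 h arrays, against 9.23 at baseline, and STC2 averaged 11.06, 10.00 and 10.78 in the same order.

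The promoter of RND3 is shown because the gene had the largest positive vehicle-led difference. RefSeq promoters were found for 30 of the 41 genes named by size, reversal or vehicle movement. The RND3 sequence runs 250 bases before to 50 after the start site, at chr2:150487646-150487945 of GRCh38.p14 on the minus strand, and its CArG box, the element bound by serum response factor, is in capitals and begins 72 bases before the start.
RND3: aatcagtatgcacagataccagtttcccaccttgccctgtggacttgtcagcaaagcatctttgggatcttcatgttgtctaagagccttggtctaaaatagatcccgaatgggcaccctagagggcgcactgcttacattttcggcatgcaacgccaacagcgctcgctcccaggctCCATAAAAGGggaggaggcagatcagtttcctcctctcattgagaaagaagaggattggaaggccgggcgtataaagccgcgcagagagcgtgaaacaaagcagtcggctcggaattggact
A CArG box, searched on both strands, is in 1.29% of the 27305 RefSeq promoters of this length. The match is a description of the letters and says nothing about binding.

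Genes of the G1/S transition and DNA replication moved together, mostly through the E2 arrays. Of 59 measured, 51 had a positive difference and 1 a negative, with a median of 0.63, against 16.5%, 17.8% and 0.02 for all genes. Their median E2 change was 0.61 and their median vehicle change -0.04, and the vehicle change was the larger for 1 of the genes that passed. Vehicle arrays were lower at 24 h than at 3 h for 16 (27.1%) and higher for 8 (13.6%), against 12.8% and 16.1% of all genes. At 24 h the E2 effect was higher for 57 and lower for 1, against 21.5% and 24.2% of all genes. At 3 h it was higher for 16 (27.1%) and lower for 7 (11.9%), against 13.5% and 17.6% of all genes. The shares of 16.5% positive and 17.8% negative differences are the background for every list below. MCM6, a subunit of the replicative helicase, was 1.01 higher at 24 h and stood at -0.04 at 3 h. Its E2 change was 0.63 and its vehicle change -0.41, and both passed. GINS4, a partner of that helicase, was 1.52 higher at 24 h and stood at 0.10 at 3 h, and MCM10, which helps to activate it, had effects of 1.49 and 0.35. POLE, the leading-strand polymerase, did not pass (difference 0.12 ± 0.05, adjusted p = 0.069).

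E2F sites are shown for members of that list, chosen after the values were seen. The letters TTTGGCGC, TTTCCCGC, TTTCGCGC and TTTGCCGC were searched on both strands of the 300 base promoter, and matches may overlap on opposite strands. At least 1 was found in 22 of the 48 promoters matched, and in 3.33% of all 27305 promoters. Capitals mark the match, on the strand given.
MCM6 (chr2:135876582-135876601, minus): tttgcaTTTGGCGCgaaatc
MCM3 (chr6:52284733-52284752, minus): ggaagtTTTCGCGCcggggt
CDC6 (chr17:40287880-40287899, plus): ttcggaTTTGGCGCgagcgc
PCNA (chr20:5126668-5126687, plus): acgcctTTTCCCGCccctga
POLE (chr12:132687347-132687366, plus): gagaaaTTTGGCGCgctccc
MCM3, CDC6, which loads the helicase, and PCNA, the sliding clamp, had differences of 0.87, 1.02 and 0.70. POLE carries the same letters as CDC6 and did not pass. CDT1 (0.11), E2F2 (-0.07) and CLSPN (0.24), which also hold E2F letters, did not pass either.

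Mitotic genes behaved differently, because they rose in both arms. Of 62 G2/M genes, 42 had a positive difference and 4 a negative, with a median of 0.26. The E2 arrays were higher at 24 h than at 3 h for 58 and the vehicle arrays for 56, where 22.3% and 16.1% of all genes were, with median changes of 0.74 and 0.44. ZWINT, a kinetochore protein, averaged 11.93 in E2 24 h arrays and 11.23 in vehicle 24 h arrays, against 11.10 in E2 3 h arrays and 11.06 in vehicle 3 h arrays. CENPM, a centromere protein, differed by 0.80 ± 0.05. CDCA8, of the chromosomal passenger complex, went against the list at -0.87 ± 0.07, with an effect of 0.42 at 24 h and 1.30 at 3 h. CDCA3 rose by 1.03 in E2 arrays and by 0.87 in vehicle arrays and its difference of 0.17 did not pass. The letters TTTGAA of the cell cycle homology region (CHR), searched on both strands, were in 36 of 52 promoters, against 15.4% of all.

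Of 26 CDK inhibitor and quiescence genes, 5 had a positive difference, near the 16.5% of all genes, and 11 a negative, against 17.8%. GADD45G, a relative of GADD45B, averaged 7.51 in E2 and 7.51 in vehicle arrays at 24 h, against 9.25 in E2 and 7.27 in vehicle arrays at 3 h. FOXO3, a forkhead factor active in resting cells, reversed, with an effect of -0.30 at 24 h and 0.56 at 3 h. Its E2 change was -0.45 and its vehicle change 0.40, so both arms contributed. CDKN1C did not pass (0.21 ± 0.12).

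For genes of cholesterol synthesis and uptake the vehicle arrays moved more than the E2 arrays. Of 23 genes, 15 had a positive difference and 2 a negative, with a median of 0.29. The median E2 change was 0.03 and the median vehicle change -0.27. Vehicle arrays were lower at 24 h than at 3 h for 14 genes and higher for 2, where 12.8% of all genes were lower. The vehicle change was the larger for 11 of the 17 genes that passed. IDI1, an isomerase of isoprenoid units whose probe set may cross-hybridise, averaged 12.57 in E2 24 h arrays and 11.94 in vehicle 24 h arrays, against 12.37 in E2 3 h arrays and 12.51 in vehicle 3 h arrays. SQLE, squalene epoxidase, rose by 0.11 in E2 arrays and fell by 0.54 in vehicle arrays. It was one of 5 genes of the list that changed direction, where 512 of all 11963 genes did. ACAT2, which joins acetyl-CoA units, moved about equally in both arms, by 0.43 in E2 arrays and by -0.42 in vehicle arrays. NSDHL did not pass (0.12 ± 0.07), with effects of 0.64 at 24 h and 0.52 at 3 h.

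Of 6 cholesterol export genes, 1 was positive and 2 negative. ABCG1, a sterol efflux transporter, had an effect of -1.65 at 24 h and -0.39 at 3 h. MYLIP, which promotes loss of the LDL receptor, had a weaker repression at 24 h (-0.55) than earlier (-0.98, at 3 h). Among 20 fatty acid synthesis and elongation genes, 7 were positive and 5 negative. ELOVL6, a fatty acid elongase, had an E2 change of 0.11 and a vehicle change of -0.63, whereas ELOVL2 rose by 0.59 in E2 arrays and fell by 0.25 in vehicle arrays. SCD, the stearoyl-CoA desaturase, differed by 0.41 ± 0.04 in 4 of 4 probe sets, and ACLY did not pass on the probe set used (0.10 ± 0.05).

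**Figure D5:**
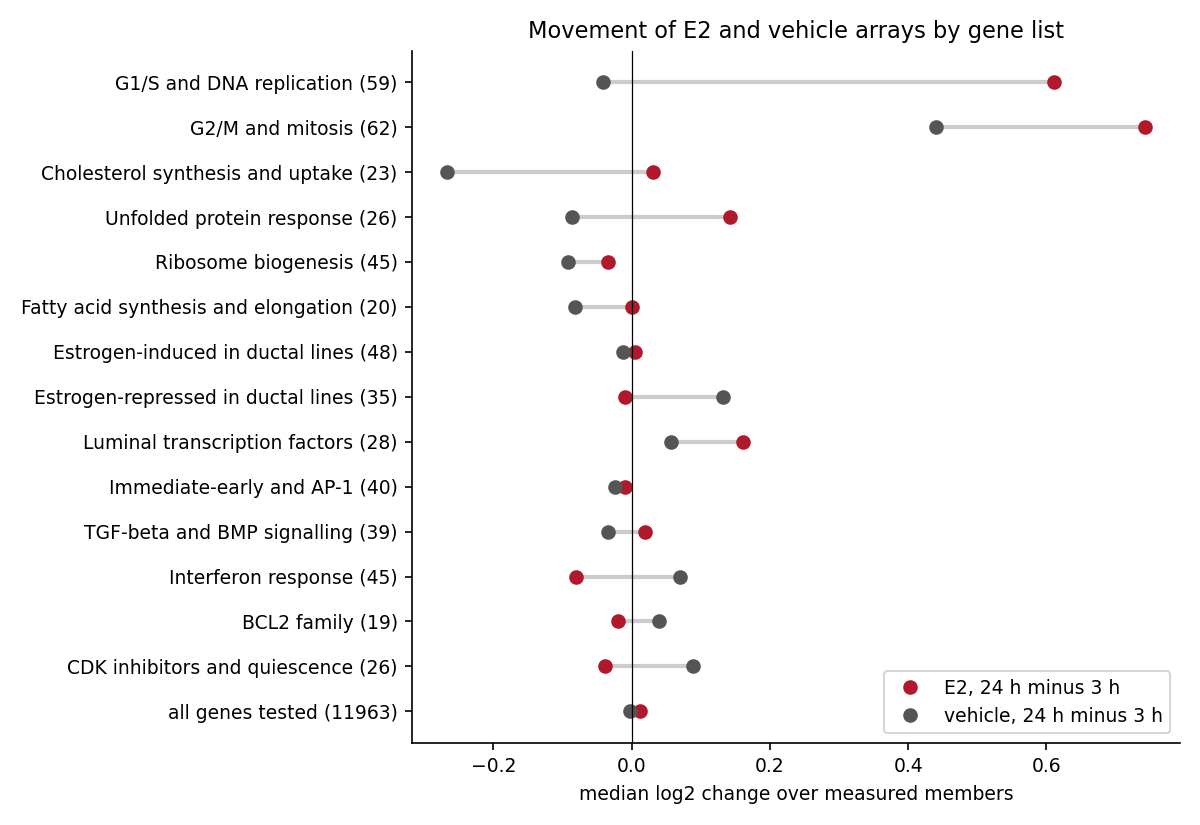
Median log2 change between 3 h and 24 h (x axis) in E2 arrays (red) and vehicle arrays (grey) for 14 gene lists and all genes (y axis, number measured in brackets). G1/S genes moved mostly in E2 arrays (0.61, vehicle -0.04), G2/M genes in both (0.74 and 0.44), and cholesterol genes mostly in vehicle arrays (E2 0.03, vehicle -0.27).

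Chaperones and folding enzymes of the endoplasmic reticulum had late positive effects of modest size. Of 26 unfolded protein response genes, 15 had a positive difference and 1 a negative, with a median of 0.25. At 24 h the E2 effect was higher for 20 and lower for 2, against 21.5% and 24.2% of all genes. At 3 h it was higher for 2 (7.69%) and lower for 5 (19.2%), against 13.5% and 17.6%. The higher share at 3 h was thus below that of all genes and the lower share near it. The E2 arrays rose (median 0.14, 18 higher and 1 lower) and the vehicle arrays had a median of -0.09 (5 higher, 11 lower). Of all genes, 22.3% were higher and 21.5% lower in E2 arrays, and 16.1% higher and 12.8% lower in vehicle arrays. HSPA5, the main chaperone of that compartment, averaged 12.61 in E2 24 h arrays and 12.22 in vehicle 24 h arrays, against 12.35 in E2 3 h arrays and 12.45 in vehicle 3 h arrays. PDIA4, a disulfide isomerase, differed by 0.50 ± 0.04 and MANF, a secreted folding factor, by 0.47 ± 0.05. ERN1, the sensor that splices XBP1, did not pass (0.24 ± 0.11).

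The ER stress element is shown for this list, again chosen after the values were seen. Its letters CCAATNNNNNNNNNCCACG, searched on both strands, were found in 8 of 24 matched promoters and in 22 of all 27305 (0.0806%). Capitals mark the element.
HSPA5 (chr9:125241385-125241415, minus): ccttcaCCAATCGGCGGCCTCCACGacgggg
HSP90B1 (chr12:103930210-103930240, plus): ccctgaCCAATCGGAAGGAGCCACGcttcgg
CALR (chr19:12938378-12938408, minus): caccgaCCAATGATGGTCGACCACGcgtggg
CRELD2 (chr22:49918548-49918578, minus): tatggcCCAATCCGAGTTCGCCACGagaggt
CANX (chr5:179698772-179698802, plus): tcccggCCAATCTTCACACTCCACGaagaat
XBP1 (chr22:28800597-28800627, minus): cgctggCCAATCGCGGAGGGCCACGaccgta
SERP1 (chr3:150546704-150546734, plus): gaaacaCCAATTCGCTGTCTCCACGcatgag
HSPA5 (0.48), the chaperone HSP90B1 (0.36), the lectin chaperones CALR (0.52) and CANX (0.16), and CRELD2 (0.37) passed with positive differences. XBP1 (-0.07), SERP1 (0.07) and ERO1B (0.06), which also hold the element, did not pass.

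Of 34 genes of the ATF4 amino acid response, 7 were positive and 12 negative. SLC38A2, an amino acid transporter, reversed, with an effect of 0.28 at 24 h and -0.41 at 3 h. It averaged 11.9 in E2 24 h arrays and 11.2 in E2 3 h arrays, against 11.6 and 11.6 in vehicle arrays. CEBPB, a bZIP factor, had a smaller effect at 24 h (0.14) than at 3 h (0.71). Of 45 ribosome biogenesis genes, 12 were positive and 4 negative. Vehicle arrays were lower at 24 h for 21 of them and higher for 2, against 12.8% and 16.1% of all genes. UTP20, a factor of ribosomal RNA processing, had an effect of 0.16 at 24 h and -0.61 at 3 h, and POLR1E, an RNA polymerase I subunit, 0.05 and 0.52. Of 41 glycolysis and hypoxia genes, 15 were positive and 13 negative. The glucose transporter gene SLC2A1 averaged 8.54 in E2 24 h arrays and 8.38 in vehicle 24 h arrays, against 9.56 in E2 3 h arrays and 8.48 in vehicle 3 h arrays.

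Interferon response genes differed mostly in the negative direction. Of 45 measured, 11 of them dim, 4 were positive and 16 negative, with a median of -0.13. The E2 arrays were lower at 24 h for 17 and higher for 5, against 21.5% and 22.3% of all genes, and the vehicle arrays higher for 11 and lower for 3, against 16.1% and 12.8%. OAS1, a sensor of double-stranded RNA, averaged 9.15 in E2 24 h arrays and 11.58 in vehicle 24 h arrays, against 10.59 in E2 3 h arrays and 11.21 in vehicle 3 h arrays. IFIT5 reversed, with an effect of -0.61 at 24 h and 0.41 at 3 h. It averaged 6.27 in E2 24 h arrays and 7.27 in E2 3 h arrays, against 6.88 and 6.86 in vehicle arrays. PSMB8, an immunoproteasome subunit, had effects of -0.38 and 0.14, and IFITM2 did not pass. The core letters GAAANNGAAA of the interferon-stimulated response element, searched on both strands, were in 24 of 37 promoters, against 3.65% of all. Of 24 antigen presentation genes and NKG2D ligands, 2 were positive and 7 negative, among the negative ones MICB, a ligand of NKG2D, which was 1.53 higher at 24 h and 2.34 higher at 3 h.

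Of 19 BCL2 family genes, 0 had a positive and 8 a negative difference, against 16.5% and 17.8% of all genes. The anti-apoptotic gene BCL2 had an effect of 0.13 at 24 h and 0.47 at 3 h, with 1 of 4 probe sets past the threshold. MCL1, another anti-apoptotic member, had -0.26 at 24 h and 0.00 at 3 h, and BNIP3, a mitophagy receptor, -0.35 and -0.07. With the most variable probe set of each gene the calls of BCL2 (-0.17, adjusted p = 0.16) and MCL1 (-0.29, adjusted p = 0.12) were lost, against differences of -0.35 and -0.27 on the probe sets used. Of 24 p53-linked genes, 2 were positive and 5 negative, with TP53I3 at 0.42 at 24 h and 1.47 at 3 h, and SESN1 at -0.58 and -1.16.

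Immediate-early and signalling genes split about evenly. Of 40 immediate-early and AP-1 genes, 11 were positive and 14 negative, and 7 changed direction, where 512 of all 11963 genes did. FOSL2, an AP-1 subunit, had an effect of 0.48 at 24 h and 1.93 at 3 h, and 3 of 3 probe sets passed in the difference. The E2 change of FOSL2 was -1.01 and its vehicle change 0.45. NR4A2, an orphan nuclear receptor, averaged 10.36 in E2 24 h arrays and 10.38 in vehicle 24 h arrays, against 9.32 in E2 3 h arrays and 10.18 in vehicle 3 h arrays, and its probe set is of the kind that may cross-hybridise. IER2 did not pass (0.08 ± 0.05). Of 32 Ras-MAPK and receptor feedback genes, 10 were positive and 11 negative, with RASL11B at -0.76 at 24 h and -2.26 at 3 h. RASL11B had an E2 change of 0.97 and a vehicle change of -0.53, and its E2 3 h mean of 5.97 was dim.

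Of 39 TGF-β and BMP genes, 11 were positive and 8 negative. SMAD7, the inhibitory SMAD, averaged 9.36 in E2 24 h arrays and 8.66 in vehicle 24 h arrays, against 11.09 in E2 3 h arrays and 8.57 in vehicle 3 h arrays. INHBB, an inhibin subunit, reversed, with an effect of -0.80 at 24 h and 0.25 at 3 h. Its E2 change was -1.02, and its vehicle change of 0.03 did not pass. Of 34 Wnt genes, 8 were positive and 9 negative. The corepressor TLE1 had an effect of -0.56 at 24 h and -1.64 at 3 h, and 3 of 3 probe sets passed in the difference. TLE1 averaged 10.73 in E2 24 h arrays and 9.60 in E2 3 h arrays, against 11.28 and 11.24 in vehicle arrays. The Wnt receptor gene FZD5 had an E2 change of 0.08 that did not pass, and fell by 0.72 in vehicle arrays. WNT4 stayed higher under E2, by 1.11 at 24 h and by 1.65 at 3 h, with a difference of -0.54 ± 0.08. Its E2 arrays averaged 8.30 at 24 h and 9.04 at 3 h, and its vehicle arrays 7.19 and 7.39.

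Genes known as estrogen-induced in ductal lines were mostly higher at both times, so their differences had no common direction. The effect was higher for 41 of 48 at 24 h (21.5% of all genes) and for 40 at 3 h (13.5%), while 15 differences were positive and 16 negative. The exact estrogen response element was found in 0 of 36 matched 300 base promoters of this list. It was in 18 of all 27305 (0.0659%), so rare that 0 of 36 cannot tell the list from all promoters. AGR2, a secretory protein isomerase, averaged 13.62 in E2 24 h arrays and 12.02 in vehicle 24 h arrays, against 12.15 in E2 3 h arrays and 12.30 in vehicle 3 h arrays. PTGES, a prostaglandin synthase, had an effect of -0.06 at 24 h that did not pass, and of 1.52 at 3 h. GREB1, a receptor cofactor, was 2.41 higher at 24 h and 1.70 higher at 3 h with an E2 change of 0.09 that did not pass, while its vehicle arrays fell by 0.62. The probe sets of GREB1 disagreed, with 1 of 3 past the threshold in the opposite direction, and their mean differed by 0.05 (adjusted p = 0.72).

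The progesterone receptor gene PGR was dim throughout, with a difference of -0.29 ± 0.20 that did not pass. Its E2 arrays lay above its vehicle arrays at both times, with means of 5.0 against 4.3 at 24 h and 5.2 against 4.2 at 3 h. TFF1, the trefoil factor, lay near the top of the scale in every group and differed by 0.02 ± 0.03. Estrogen-repressed genes had 9 positive and 13 negative differences of 35. BCAS1 averaged 7.29 in E2 24 h arrays and 8.77 in vehicle 24 h arrays, against 8.46 in E2 3 h arrays and 8.49 in vehicle 3 h arrays. VAV3 reversed, with an effect of 0.39 at 24 h and -0.98 at 3 h, and NDRG1, a hypoxia-responsive gene, was 1.13 lower at 24 h and 0.15 lower at 3 h.

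ESR1, the receptor gene itself, read 13.38, 13.38, 13.41 and 13.38 in E2 24 h arrays, against 13.61, 13.55, 13.53 and 13.57 in vehicle 24 h arrays. At 3 h it read 13.07, 12.97, 13.03 and 12.92 in E2 arrays, against 13.30, 13.28, 13.33 and 13.26 in vehicle arrays. E2 arrays were below vehicle arrays at both times, and both arms rose, by 0.39 in E2 arrays and by 0.27 in vehicle arrays. The difference of 0.12 ± 0.04 passed narrowly (adjusted p = 0.033), in 2 of 9 probe sets, and was lost in several alternatives.

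Of 28 luminal transcription factors, 12 were positive and 8 negative. ELF3, an epithelial ETS factor, had an effect of -0.01 at 24 h that did not pass, and of 1.15 at 3 h, and its vehicle arrays rose by 0.70. Of 31 adhesion genes, 8 were positive and 8 negative. CDH1, the E-cadherin gene whose protein lobular carcinomas typically lack, read 9.20, 9.23, 9.35 and 9.34 in E2 24 h arrays, against 9.10, 9.03, 9.15 and 9.15 in vehicle 24 h arrays. At 3 h it read 9.78, 9.73, 9.88 and 9.80 in E2 arrays, against 8.93, 9.13, 9.04 and 9.08 in vehicle arrays. The E2 arrays fell by 0.52 between the times and the vehicle change of 0.07 did not pass; 1 of 2 probe sets passed. TWIST1, a repressor of epithelial genes, had an effect of -0.78 at 24 h and -1.78 at 3 h. It averaged 9.49 in E2 24 h arrays and 8.40 in E2 3 h arrays, against 10.27 and 10.18 in vehicle arrays.

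Some strong responses gave differences that did not pass. Effects of at least 2-fold in the same direction at both times, with no difference past the threshold, were found for 21 genes, 12 higher and 9 lower. EGR3, an immediate-early factor, was 3.16 higher at 24 h and 3.32 higher at 3 h (difference -0.16 ± 0.18), with dim vehicle levels. HEY2, a Notch-related repressor, was 2.00 higher at 24 h and 1.98 higher at 3 h, and both arms rose together, by 0.25 and 0.23. PMAIP1, a pro-apoptotic BCL2 family gene, was 1.94 higher at both times, and MDM2, the p53 ligase, 2.02 higher at 24 h and 1.87 higher at 3 h. With the mean of all its probe sets the difference of MDM2 passed (0.23, adjusted p = 0.011). The standard errors of these differences, 0.07 to 0.18, set what could have been seen.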

How the data were processed

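RNA from SUM44 cells was hybridised to 20 Affymetrix U133A 2.0 arrays, and the authors deposited 1 table of log2 values, which the submitters' processing notes credit to RMA in the affy package; the version is not given in the sources used here. Of 22277 probe sets, 19064 carried 1 gene symbol, 1043 several and 2108 none, and 62 controls were left out. Each of 11963 genes was read through the single-symbol probe set with the highest mean over all arrays. RMA gives no detection calls, and the number of arrays limits precision.

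A mean per group was fitted over all 20 arrays with limma 3.58.1 in R 4.3.3, and every adjusted p is limma's moderated test with Benjamini-Hochberg adjustment over all genes, without a block. The code was tested on simulated data. Samples with the same letter mostly did not deviate together (40 pairs, median correlation 0.01, 6 over 0.1, highest 0.37). Between E2 3 h and E2 24 h arrays the correlation was 0.25 for A, 0.02 for B, 0.01 for C and 0.37 for D. That of E2 3 h D with E2 24 h A was -0.36. Whether letters pair the samples is not settled by these values, and the letter as a block is an alternative below. Pairwise overlap of arrays is a count of separate ranges. The difference uses the arrays of both effects and of both changes.

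Members and gene lists were chosen with earlier results of these data known. Genes named are the 10 largest differences of each sign, the 8 clearest reversals of each direction, the 5 largest vehicle-led differences of each sign, up to 3 members of each of 27 lists with 1 that did not pass, 4 steady genes and 6 set genes (ESR1, PGR, GREB1, TFF1, CDH1, WNT4); 139 in all, of which the text describes a part; 1 with a large positive difference is not reported here. Genes whose promoter sites are printed beyond these, and CYP1B1, were chosen after their values were seen. Promoters are those of RefSeq, GRCh38.p14.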

Additional observations from a re-analysis of the deposited data

Results flagged for a closer look

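Among 556 groups of 4 arrays of the named genes, 29 had 1 array far from the other 3, where chance gives about 1 in 20. In E2 24 h arrays these were S100A7 (array B, 11.82), GDF15 (D, 5.82), GADD45B (A, 8.11), NR2C1 (D, 7.87), CENPM (C, 8.71), IER2 (C, 10.05), CEBPB (D, 11.14), PDIA4 (D, 11.18), NFIL3 (A, 9.26) and EGR3 (D, 6.83). In vehicle 24 h arrays they were E2F8 (D, 9.20), MYLIP (A, 10.80), HLA-DRA (C, 5.01), FZD1 (D, 9.62), LYZ (A, 4.86) and EGR3 (D, 4.07). In E2 3 h arrays they were KCNK2 (D, 4.87), CACNA2D3 (D, 7.52), MCM10 (D, 8.30), ERN1 (D, 6.63), NOP2 (D, 7.80), SPARC (D, 10.79) and COL5A2 (A, 5.93). In vehicle 3 h arrays they were ATP8A2 (A, 8.49), HSD11B2 (D, 5.78), NR2C1 (B, 8.02), GADD45G (B, 7.08), CALR (D, 10.87) and CD163 (A, 5.78).

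The effect of E2 differed between the times for 4100 genes by limma's test of the difference. Of the 139 named genes 34 changed direction, and those with the clearest opposite effects, 8 of each direction, are given here with their difference (24 h minus 3 h), each past the threshold. Negative differences were measured for MAN1C1 (-2.24), CRISPLD2 (-2.22), STC2 (-1.67), HES1 (-1.67), LDLRAD4 (-1.57), ZNF750 (-1.39), TBX3 (-1.13) and NR2C1 (-1.01). Positive differences were measured for PDGFC (1.79), GEM (1.67), CREB5 (1.46), ARAP2 (1.44), E2F8 (1.36), GPC4 (1.30), PHLDA2 (1.25) and KCNE4 (1.16).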

How the results depend on the processing

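No count or named gene reversed in any of the alternatives run. Requiring a 1.5-fold size left 767 genes in the difference of effects, 759 at 24 h, 635 at 3 h, 752 in the E2 change and 200 in the vehicle change, with 7 reversals and 619 genes led by the E2 change. At an adjusted p under 0.01, 314 reversals were left. The other alternatives kept each count within 1.5 times. Leaving out 1 array at a time gave 3897 to 4299 genes in the difference, 451 to 553 reversals, 2780 to 3123 led by E2, 5008 to 5564 at 24 h, 3444 to 3773 at 3 h, 4879 to 5249 in the E2 change and 3110 to 3584 in the vehicle change. With the replicate block (the letter) 4078 genes passed and 498 reversed, and the calls of DUSP1 and IARS1 were gained. Of the 31 named genes that did not pass, mostly chosen as the nearest to the threshold of their list, 23 passed in 1 alternative or more, among them POLE, CDCA3, NOP2, IFITM2, ERN1, HLF, CDKN1C (0.18, adjusted p = 0.0046 with the mean of all probe sets), ACLY (0.19, adjusted p = 0.0014 likewise) and MDM2. ESR1 lost its call without the baseline arrays (adjusted p = 0.059) and without any of 7 single arrays (E2 24 h C, E2 3 h B and D, vehicle 24 h B and C, vehicle 3 h A and C, adjusted p = 0.057 to 0.072). It lost the call more clearly with the mean of all probe sets (0.12, adjusted p = 0.22) and with the most variable one (0.09, adjusted p = 0.56). LPCAT3 lost its call with the mean of all probe sets (adjusted p = 0.063) and COL5A2 with the most variable one (adjusted p = 0.054). The cause was not tested.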

Other observations

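Of 19 circadian clock genes, 5 had a positive difference and 3 a negative. TIMELESS, which also acts in replication, was 1.10 higher under E2 at 24 h and stood at 0.09 at 3 h, led by an E2 change of 0.95. RORA, a nuclear receptor of the clock, was 1.17 lower at 24 h and stood at 0.13 at 3 h. NFIL3, a repressor of clock output, had an effect of 0.13 at 24 h and 0.77 at 3 h, and HLF did not pass. NFIL3 averaged 9.17 in E2 24 h arrays and 9.47 in E2 3 h arrays, against 9.04 and 8.70 in vehicle arrays. Of 12 basal markers, 7 of them dim, 1 had a positive difference (OXTR, the oxytocin receptor gene, 0.69 ± 0.14, with a vehicle 3 h mean of 6.35 and dim means in the other 3 groups), of 18 stromal markers 2 were positive and 3 negative (SPARC, COL5A2 and TAGLN), and of 21 immune and endothelial markers 1 was positive (LYZ, dim). Of 14 luminal identity genes 6 were positive and 2 negative.

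CYP1B1, a cytochrome P450 that hydroxylates estradiol, had one of the larger vehicle movements. Its E2 arrays changed by -1.43 and its vehicle arrays by -2.54 between the times, for a difference of 1.10.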
